A study of Mus musculus with 2 samples.

Results

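The signalling lymphocytic activation molecule (SLAM) family receptors and their adaptor SAP were followed in sorted mouse regulatory T (Treg) cells, the CD4 T cells that restrain immune responses. They comprise 10 genes, namely the 9 receptor genes Slamf1, Slamf6, Slamf7, Slamf8, Slamf9, Cd84, Ly9, Cd48 and Cd244 and the adaptor gene Sh2d1a, which encodes SAP. The members were all gene spots that carried one of these names in the array design, which gave 14 probes of 39348 probes analysed and 10 of 30068 gene names. Of the members, 4 had 2 probes (Slamf6, Cd84, Ly9 and Cd48), 6 had 1 probe, and each probe was printed in 1 spot per array. Total RNA of Treg cells from mice 5 weeks old was hybridised to 1 single-colour Agilent array per genotype, 1 labelled Nr4a-deficient (a triple knockout of the Nr4a nuclear receptor genes, abbreviated Nr4a-TKO in the protocol) and 1 labelled wild-type. No treatment of the cells other than sorting and lysis is given. The sources used here do not state the sort markers, the tissue, the strain, the alleles, any Cre line or how many animals gave each library.

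With 1 library per group there was no replicate check and no test between genotypes, and each value describes these 2 libraries. Differences are log2 values of the library labelled Nr4a-deficient minus the wild-type library, on signals divided by the 75th percentile of the array. Higher and lower always refer to the library labelled Nr4a-deficient, and pairs of signals, in intensity units before scaling, name that library first. Genes that differed by 2-fold or more were counted. The only measure of error was the spread between spots of 1 probe on these arrays, which leaves out animals, sorts and RNA preparations. It was taken, for each member, from probes printed in 10 spots whose level lay within 0.5 log2 units of it. The 8 detected spike-in RNAs were higher by 0.37 ± 0.058 (SD, n = 8), so that every difference is 0.37 lower on a scale set by them, called here the spike-in scale. The probes of the targeted genes did not check the label: Nr4a1 and Nr4a2 were 1.82-fold and 1.97-fold higher, and the Nr4a3 probe was too dim to be well above background on the arrays. The deleted part of each gene is not given, and a probe outside it checks nothing. T cell genes were bright in both libraries, with Cd3e at 109161 and 111548 units and Cd4 at 44906 and 48090. The probe of Foxp3, the defining factor of Treg cells, was close to background in both, at 74.5 and 85.4. Of 20 T and Treg cell identity genes, none was higher, 2 were lower (Ikzf4 and Il2ra), and the median was -0.18.

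SLAM family receptors are immunoglobulin-like proteins on blood cells. Most of them bind their own kind on a neighbouring cell, whereas Cd244 binds Cd48. The tails of Slamf1, Slamf6, Cd84, Ly9 and Cd244 hold tyrosine-based switch motifs that recruit SAP, a small adaptor made of an SH2 domain, which in turn brings the kinase Fyn. Without SAP the same motifs can recruit inhibitory phosphatases. Slamf7 has such a motif as well and signals mainly through the related adaptor EAT-2 (Sh2d1b1). Cd48 is held by a lipid anchor and has no tail, and Slamf8 and Slamf9 have short tails without the motif. In T cells, SAP is known for its role in the help that follicular helper T (Tfh) cells give to B cells and in the development of natural killer T (NKT) cells.

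The sequences of the probes show what the array read for 2 of these receptors. One probe of Slamf6 and one of Ly9 hold letters that could spell a switch motif, and they are printed because each gene has a second probe to be compared with. Whether the probes lie in coding sequence was not checked, since no annotation of mm9 was used here. The capitals mark letters that read as a threonine codon, any codon, a tyrosine codon, 2 further codons and a valine codon, on the probe's own strand, 5′ to 3′.
Slamf6, chr1:173871767-173871826 (mm9): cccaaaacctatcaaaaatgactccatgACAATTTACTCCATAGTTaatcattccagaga
Ly9, chr1:173523555-173523614 (mm9): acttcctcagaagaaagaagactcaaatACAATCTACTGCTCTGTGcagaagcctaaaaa
In both probes this stretch started at base 29 and its reading frame was free of stop codons. The pattern searched was, codon by codon, ACN, NNN, TAC or TAT, NNN, NNN and GTN, on the probe's strand only, and it was found in 136 of 39429 gene probes on the array (0.345%) and in 2 of the 14 member probes. A match describes the letters and shows no binding. The Ly9 gene is read towards lower coordinates, and the Slamf6 gene towards higher ones.

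Of the 10 genes, Slamf9 and Slamf8 were more than 2-fold higher, none was lower by that much, and 8 lay within 2-fold. By the same rule 4.7% of 18536 genes were higher and 4.94% were lower, together 9.64%, or 3.02% higher and 8.14% lower (11.2% together) on the spike-in scale. Among the 16294 genes measured on both arrays, which leave out Slamf8, these shares were 2.65% and 3.06%, together 5.71%. The 8 genes within 2-fold ranged from -0.25 (Sh2d1a) to 0.74 (Slamf6). The median of the members was 0.14, against 0.0034 over all 18536 genes at their measured values, and both are 0.37 lower on the spike-in scale. All 14 probes passed the scanner's mark of well above background on the first array and 13 on the wild-type array, the exception being the Slamf8 probe. By structure, none of the 6 receptors with a switch motif passed 2-fold (-0.21 to 0.74), nor did SAP, whereas 2 of the 3 receptors without the motif did. The third of these, Cd48, lay at -0.053, and a link between the motif and the difference was not tested.

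**Figure D1:**
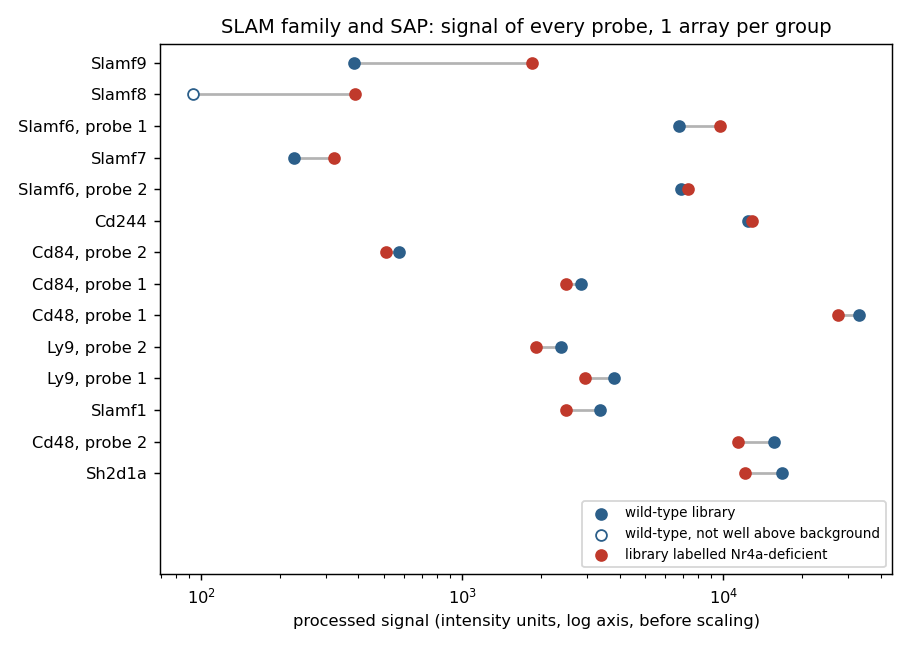
Processed signal of all 14 probes of the 10 genes on a log axis in intensity units, before scaling, with 1 point per library (blue, wild-type; red, labelled Nr4a-deficient; open, not well above background). Slamf9 and Slamf8 at the top have the widest gaps, and the points of the other probes lie close together.

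Slamf9, a receptor of myeloid and plasmacytoid dendritic cells (pDCs), had a signal of 1844 units where labelled Nr4a-deficient and of 384 in wild-type. It was 5.57-fold higher after scaling, a log2 difference of 2.48, where the SD between spots of like level was 0.075. Of the 16294 genes measured on both arrays, 0.485% had a higher difference, and 0.792% had one of greater size in either direction. Of 1860 genes of like level, 1.45% had one of at least this size. Slamf8, a receptor of macrophages and other myeloid cells, had signals of 388 and 93.2 units, of which the wild-type value was not well above background. Slamf8 was 4.83-fold higher (log2 bound 2.27, SD between spots 0.22). This bound equals the measured difference, because the wild-type signal lay above the lowest detected signal of that array (73.8). It is thus no firm minimum. The bound was 3.74-fold (1.90) on the spike-in scale, and 2.72-fold (1.44) after normexp background correction and quantile normalization. The probes lie on chromosome 1 of mm9, from 174408455 to 174408514 for Slamf9 and from 174512067 to 174512126 for Slamf8.

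**Figure D2:**
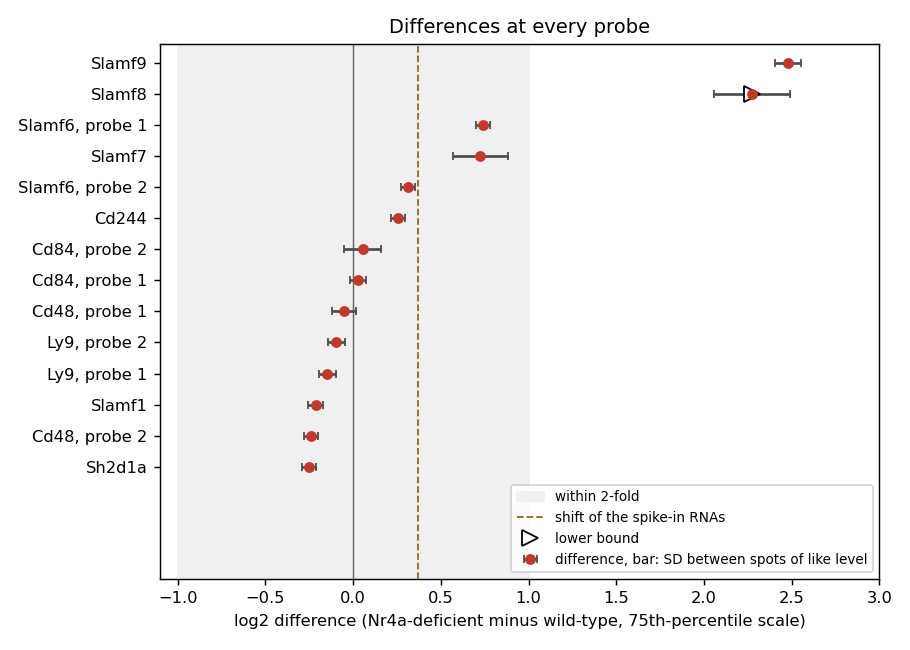
Log2 difference at each probe (library labelled Nr4a-deficient minus wild-type), with a bar for the SD between spots of like level, the grey band for differences within 2-fold and the dashed line for the shift of the spike-in RNAs (0.37). Slamf9 (2.48) and Slamf8 (2.27, a bound equal to its measured difference) lie outside the band. Slamf6 (0.74 at its first probe) and Slamf7 (0.73) lie to the right of the dashed line.

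Markers of pDCs were higher in the same library. Of 18 pDC markers, all detected, 14 passed 2-fold upwards and none downwards, with a median of 1.68. Among them Cox6a2 had signals of 8217 and 83.8, and the pDC transcription factor genes Tcf4 and Spib were 7.57-fold and 5.67-fold higher. Siglech, a defining surface lectin of pDCs, gave 3 disagreeing probes. Its brightest probe had 136839 and 147869 units (log2 difference 0.10). Another Siglech probe had 12556 and 147 (99.2-fold higher), and the third was at least 6.72-fold higher. The summed scaled signal of the other 17 markers, in units of each array's 75th percentile, was 79.6 against 34.4 in wild-type. Several of these genes, such as Lag3, Ccr9, Irf8 and Bst2, are also expressed by T cells, and part of the list had been chosen from these libraries, so its direction is not independent evidence. The part of pDC RNA in the Slamf9 value was not tested. In such bulk samples, fewer cells of a type and less RNA per cell cannot be told apart.

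Macrophage and conventional dendritic cell markers went both ways. Of 23 detected of 24, 5 passed 2-fold upwards and 10 downwards, with a median of -0.78 and a summed scaled signal of 64.2 against 94.1 in wild-type. The dendritic cell genes Clec10a, Cd209a, Itgax and Clec9a were the 4 highest, with log2 values of 5.62 and 5.03 (bounds) and 2.65 and 2.49. The macrophage genes Vcam1 (3.35-fold), Mertk (3.27-fold), C1qc (3.03-fold) and C1qa (2.92-fold) were the 4 lowest. Xcr1, a marker of conventional dendritic cells, was below the mark on both arrays. The macrophage genes Adgre1, Csf1r, Fcgr1 and Cd68 also lay below 0, at -1.29, -0.96, -0.78 and -0.27. Other myeloid genes lay above 0, namely Lyz2 (2.04-fold higher), Lyz1 (1.91-fold) and Itgam (0.33). The dendritic cell genes Batf3, Flt3 and Zbtb46 lay at -0.076, 0.43 and 0.40 (the last a bound). Another Flt3 probe had 1162 and 85.7 units and was 15.7-fold higher, a bound that equals its measured difference. The remaining Flt3 probe had a bound of 0.36, so the size of the Flt3 value depends on the probe. Of the detected dendritic cell genes named here, only Batf3 lay below 0, and by a small amount. The part of these cells in the Slamf8 value was not tested.

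The upstream sequence of Slamf9 is shown because Spib, the ETS family factor shared by pDCs and B cells, was also higher. RefSeq promoter windows (250 bases before to 50 after the start, GRCm38.p6) were listed for 8 of the 10 genes, all but Ly9 and Sh2d1a. The ETS core AGGAAGT was chosen for this search after the values were seen. On either strand it was found in 9.35% of 32851 windows, and of the 8 members only in that of Slamf9, at positions -132 and -7 from the start. A window with 2 or more such matches was 0.645% of all. Because of that choice these shares are not evidence, and binding of Spib or any other ETS factor to Slamf9 was not tested. The capitals mark the matches in the 250 bases before the start, on the plus strand.
Slamf9, chr1:172475110-172475359 (GRCm38.p6): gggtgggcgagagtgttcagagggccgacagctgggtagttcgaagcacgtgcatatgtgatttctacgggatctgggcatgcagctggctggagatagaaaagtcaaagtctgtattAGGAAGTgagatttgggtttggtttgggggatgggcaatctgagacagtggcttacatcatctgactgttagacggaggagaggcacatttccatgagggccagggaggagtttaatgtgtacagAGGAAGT
The window of Slamf8 did not hold these letters. The site read by Nr4a monomers, AAAGGTCA, was found on either strand in 1.51% of all windows and in 0 of the 8 member windows, and its core AGGTCA, which lies inside it, in 16.3% of all windows and in 1 member, Cd84, at position -243. A match in a window likewise shows no binding, and a missing match says only that the letters are not in this window.

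Sh2d1a, the gene of SAP, had a bright probe in both libraries, with 12100 and 16737 units. After scaling it was 1.19-fold lower (log2 difference -0.25, or -0.62 on the spike-in scale). Its SD between spots was 0.040, so the difference was larger than spot noise, but 36.2% of the genes measured on both arrays had a difference of greater size. Its probe lies on chromosome X from 39875116 to 39875175 (mm9). Slamf1, the receptor that named the family and binds itself, had 2494 and 3358 units and was 1.16-fold lower (-0.21, SD between spots 0.044). For Slamf1, 43.0% of the genes had a difference of greater size. Sh2d1a and Slamf1 were thus lower by small amounts that many other genes exceeded.

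Slamf6 (Ly108), a receptor of T, B and NK cells that binds itself, was the highest of the receptors that recruit SAP. Its probe printed above had 9741 and 6770 units, and was 1.67-fold higher (0.74, SD between spots 0.039). The second probe of Slamf6, at 173873620 to 173873679, had 7331 and 6853 units and was 1.24-fold higher (0.31, or -0.058 on the spike-in scale). The probes thus differed by 0.43, which is 7.63 times the spot noise of that gap. Of 3025 genes with 2 probes measured in both libraries, 13.8% had a wider gap. The array design lists 2 Ensembl transcripts for the probe printed above and 1 for the other. Mouse Slamf6 is known to be spliced into isoforms with different tails. Which transcripts carried the difference was not tested. Of the genes measured on both arrays, 4.09% had a higher difference than the first probe and 14.0% than the second. The shares with a difference of greater size in either direction were 8.75% and 28.2%.

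For Ly9, which binds itself and is broadly present on T and B cells, the probes gave like values. The Ly9 probe printed above had 1915 and 2378 units (-0.096), and the brighter probe had 2957 and 3800 (-0.15), with SDs between spots of 0.048 and 0.046. Cd84, a self-binding receptor of B cells, T cells, platelets and macrophages, had 2503 and 2855 units at its brighter probe (0.026) and 510 and 570 at the other (0.055). Both Cd84 differences were smaller than the SD between spots (0.046 and 0.11). The brighter Cd84 probe spans 2231 bases of the genome, from 173816502 to 173818732, and thus crosses a splice junction. The sign of Cd84 turned on the scale, at -0.35 with the spike-ins and -0.071 with the median of all probes. Of 13 detected erythroid and platelet markers, none was higher and 9 were lower (median -1.56, summed signal 39.3 and 122). Those lower included the globin genes, Alas2 and Epor, so these values mainly describe red cell genes. The platelet genes Pf4, Ppbp, Gp9 and Itga2b were below the mark on both arrays. The platelet gene Gp1bb was detected only where labelled Nr4a-deficient (63.1 and 68.1 units, bound 0). The part of platelet RNA in the Cd84 value was not tested.

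Cd48, the lipid-anchored receptor found on most blood cells, and its ligand Cd244 differed little. The brighter Cd48 probe had 27469 and 33106 units (-0.053, within the SD between spots of 0.069). The other, at 173629721 to 173629780, had 11393 and 15633 (-0.24, SD 0.042), so that its values differed by more than spot noise. The design lists 2 Ensembl transcripts for the brighter probe and 1 for the other. Cd244 (2B4), best known from NK and CD8 T cells, had 12815 and 12453 units and was 1.20-fold higher (0.26, SD 0.041), or lower by a log2 value of -0.11 on the spike-in scale. The Cd244 value is limited by its probe, at 173515388 to 173515447. This probe holds the run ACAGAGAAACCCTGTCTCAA, which matches the B1 family of interspersed repeats. That run was found in 5 promoter windows of 32851, and runs of 20 bases of this probe in 7 windows. The other 13 member probes shared no run of 20 bases with any window. These windows are not transcripts, so the search does not measure how specific any of the probes is. The part of other transcripts with this repeat in the Cd244 signal was not tested. Of 18 detected markers of NK and CD8 T cells, 3 were higher and 1 lower (median 0.064, summed signal 45.7 and 42.5). The NK receptor genes Klrd1 (832 and 42.9 units) and Klrk1 (637 and 36.4) were higher, with log2 bounds of 3.71 and 3.32, and Nkg7, a gene of cytotoxic granules, was 2.14-fold higher. The gene of the granule protease cathepsin W, Ctsw, was 2.90-fold lower, and the NK receptor genes Ncr1 and Klrc1 were below the mark on both arrays. The part of NK and CD8 T cell RNA in the Cd244 value was not tested.

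Slamf7 (CRACC), a self-binding receptor of NK cells, plasma cells, pDCs and activated lymphocytes, was dim, with 322 and 226 units. It was 1.65-fold higher (0.73, or 0.35 on the spike-in scale), and the SD between spots at this level was 0.16. Of the genes measured on both arrays, 9.01% had a difference of greater size, and of 1739 genes of like level 18.6% had one of at least this size. Plasma cell markers had 4 of 10 detected genes higher and 1 lower (median 0.22, or 0.84 with measured values in place of bounds; summed signal 25.8 and 22.7). Mzb1 and Jchain, genes of antibody assembly that pDCs also express, were 6.55-fold and 3.71-fold higher, and Pou2af1, a coactivator gene of B cells, was 2.73-fold higher. Fkbp11, a gene of secretory cells, was at least 4.08-fold higher, with 259 and 18.5 units. Derl3, a gene of protein quality control, was 2.91-fold lower. Of the defining plasma cell markers, Tnfrsf17 (BCMA) was detected only where labelled Nr4a-deficient (73.0 and 15.5 units, a bound of 0.20), and Sdc1 was below the mark on both arrays. B cell markers had 5 of 17 detected genes higher and none lower (median 0.82, summed signal 29.3 and 14.8), while Pax5 and Blk were below the mark. The part of these cells in the Slamf7 value was not tested.

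**Figure D3:**
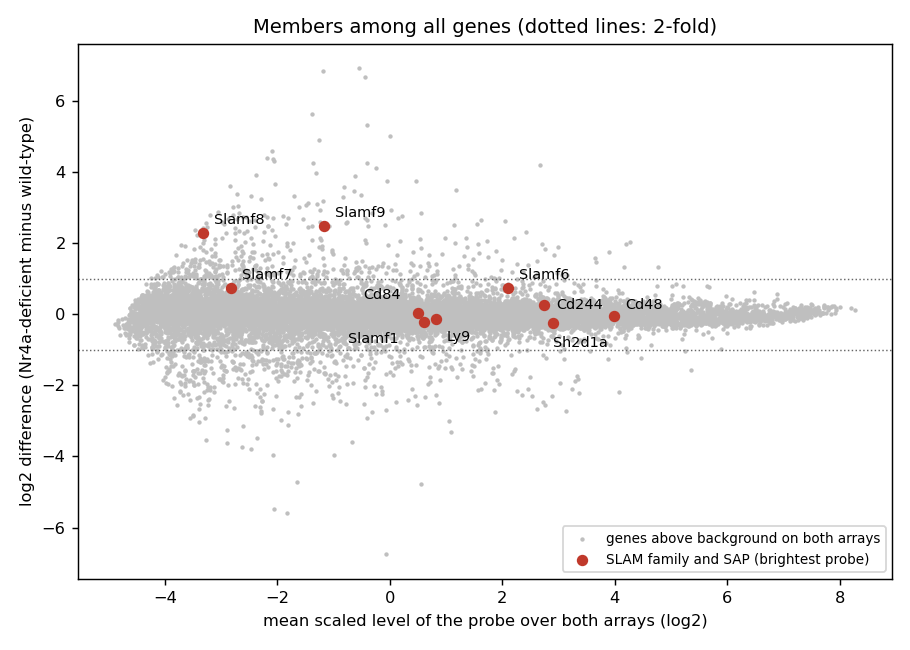
Log2 difference against the mean scaled level of each gene's brightest probe, for the 16294 genes measured on both arrays (grey) and the 10 members (red), with dotted lines at 2-fold. Slamf9 and Slamf8 lie above the upper line at low levels, and the other members lie within the lines, Slamf6 (0.74) nearest to the upper one.

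The signalling genes around SAP differed little. Of 38 detected genes of adaptors, kinases, phosphatases and other partners, SAP itself included, Plcg2 and Inpp5j were 2-fold higher or more, none was lower, and the median was 0.057 (-0.31 on the spike-in scale). Pik3r1, a regulatory subunit gene of PI3 kinase, was 1.62-fold lower (-0.69) and passed 2-fold lower on the spike-in scale (-1.06). Fyn, the kinase that SAP recruits, lay at 0.17, with signals of 4947 and 5112. The phosphatase genes Ptpn6 (SHP-1), Ptpn11 (SHP-2) and Inpp5d (SHIP-1) lay at 0.19, 0.11 and 0.26, and Cd2, a related adhesion receptor, at -0.17. On the spike-in scale the first 4 of these turn below 0 as well. The EAT-2 gene Sh2d1b1 was dim, at 207 and 204 units (0.24), and its paralog Sh2d1b2 was below the mark on both arrays. Plcg2, the phospholipase of B cells and myeloid cells, was 2.67-fold higher, with 5068 and 2205 units, while Plcg1, its T cell counterpart, lay at -0.14. Inpp5j, an inositol phosphatase, was at least 5.04-fold higher, with 321 units against 19.9.

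The lineages that depend on SAP were described by 2 further lists. Of 21 detected Tfh genes, 5 were higher and none was lower, with a median of 0.30 (-0.069 on the spike-in scale). Cxcr5, which guides cells into follicles, was 2.41-fold higher with 7161 and 3450 units, but within 2-fold on the spike-in scale (0.90). The cytokine gene Il21 was 20.5-fold higher, a bound that equals its measured difference. Bcl6, the Tfh factor, lay at 0.30, with 8230 and 7755 units. Of 16 detected NKT and innate-like T cell genes, 2 were higher (Il4 and Cxcr6), 2 lower (Il17rb and Xcl1) and the median was 0.28. Zbtb16, the factor that defines NKT cells, was dim, with 116 units, and with 54.6 in wild-type, where it was not well above background (bound 0.87). As given above, 14 of 18 pDC genes passed 2-fold upwards. For B cells 5 of 17 detected genes did so, and 12 lay within 2-fold. Of those 5, Fcrla (2.57) and Spib (2.13) stayed past 2-fold on the spike-in scale, and Blnk, Ebf1 and Fcmr did not. Spib is counted in the pDC list as well. The part of B cell and pDC RNA in the Tfh and NKT lists was not tested.

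**Figure D4:**
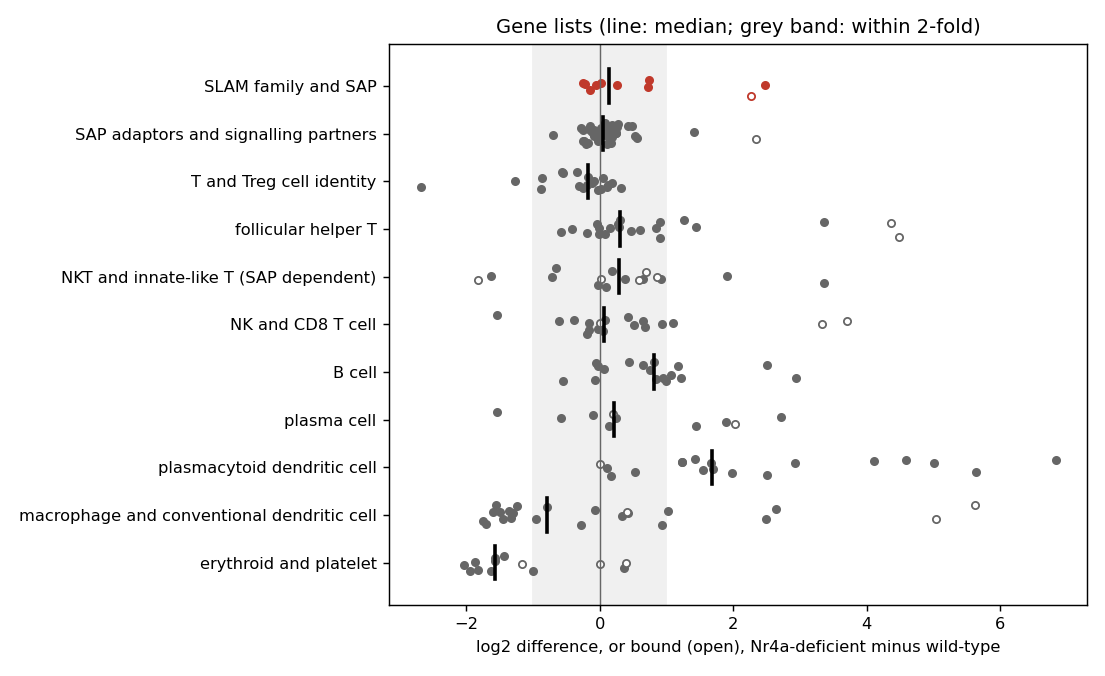
Log2 difference of every detected gene of 11 lists, the members (red) included (library labelled Nr4a-deficient minus wild-type; open points, bounds of genes above background on 1 array only), with the median of each list as a line and differences within 2-fold in grey. The SAP partners gather around 0.057, pDC markers lie to the right (median 1.68), and erythroid and platelet markers lie to the left (median -1.56).

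All 9 receptor genes lie on chromosome 1, with their probes between 173515388 and 174512126 on mm9, a span of 997 kb. The differences varied along this span, and a link between position and difference was not tested. From Cd244 to Slamf6 the values ranged from -0.21 to 0.74 over 356 kb, with both signs among them, and Slamf9 and Slamf8 lay 893 kb and 997 kb from the Cd244 probe. Of 42 detected neighbours within the block or 500 kb on either side, 38 lay within 2-fold at their brightest probe, 2 above it and 2 below it, with a median of -0.010. B4galt3, named after its values were seen, was counted within 2-fold at -0.36. Its other probe had 8248 and 2910 units and was 3.29-fold higher, so that call depends on the probe. The nearest detected neighbour beyond Slamf8 was Dusp23, a phosphatase gene, 1046 kb from the Cd244 probe, which was 5.54-fold higher with 920 units against 193. Between Slamf9 and Slamf8, Igsf9 and Tagln2, chosen after their values were seen, lay at -0.020 and 0.76 at their brighter probes. Their other probes lay at -0.068 and 0.086, so the Tagln2 value depends on the probe. On the other side, the nearest detected neighbour was Itln1, the gene of a secreted intestinal lectin, which was well above background in wild-type alone at all 3 probes and was lower by at least 13.8-fold, 5.85-fold and 3.03-fold at them. The other neighbours past 2-fold were the predicted gene Gm10521 between Cd84 and Slamf6 (2.29-fold higher) and Kcnj10, a potassium channel gene (4.92-fold lower).

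**Figure D5:**
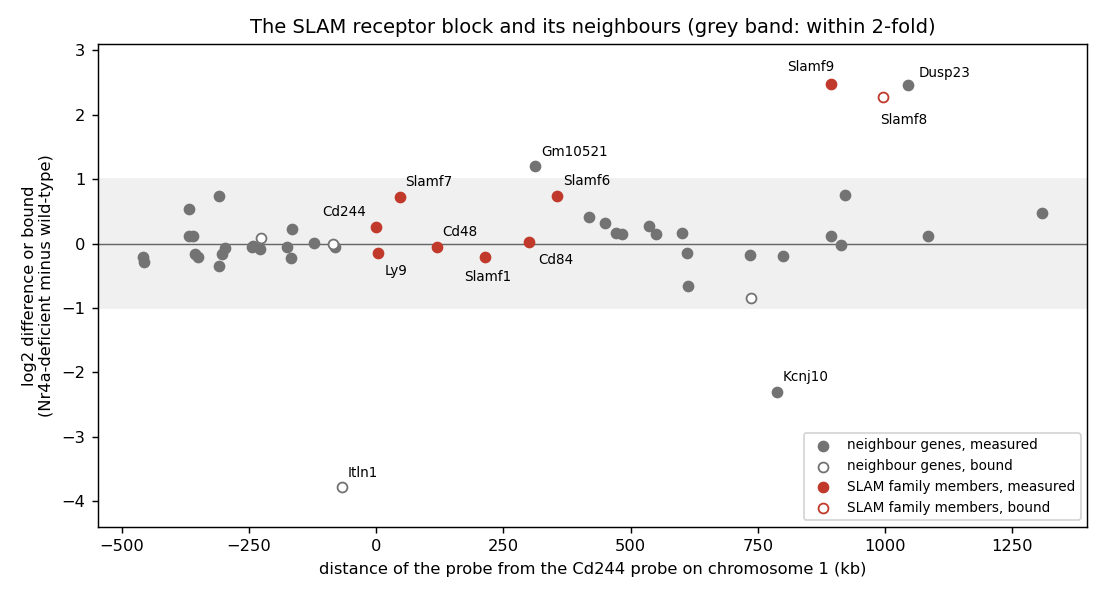
Log2 difference, or bound (open points), of the 9 receptor genes (red) and 42 detected neighbours (grey) against the distance of the probe from the Cd244 probe in kb. Slamf9, Slamf8 and Dusp23 lie together at the right, above the band of differences within 2-fold, and Itln1 and Kcnj10 lie below it.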

How the data were processed

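Total RNA of sorted Treg cells was labelled with Cy3 from 600 ng with a low-input kit, per the labels' protocols. Per the file headers, the deposited intensity values come from Agilent's Feature Extraction software, version 10.7.3.1 (background subtraction and detrending within the array), with mm9 as the build; no step between arrays is recorded. From these, log2 values of the processed signal were scaled to each array's 75th percentile (1762 units in the library labelled Nr4a-deficient, 2047 in wild-type) after 173 and 209 outlier spots were left out. The lowest signal well above background was 51.1 and 73.8, respectively, and the number of arrays limits the precision. A probe was detected on an array where over 50% of its spots carried the scanner's mark of well above background, and a gene was read at the brightest of its probes detected on 1 array or both. Where it was detected on 1 array only, the difference is a bound: the dim side is set to its own value or to the lowest detected value of that array, whichever is greater. Other genes got no fold.

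The authors' deposited value table of intensity values lay within 1% of the scanner values for 99.7% of probes in each library, and was 1 of 11 alternatives. Names were updated through RefSeq (GRCm38.p6) for 27324 probes by accession, 3518 by symbol and 551 by synonym; 8036 kept the array's name. RefSeq names Cd244 as Cd244a. R 4.3.3 with limma 3.58.1 and Python 3.11.15 were used, and the calls were tested on simulated data. Named were all members, fixed signalling and marker genes, up to 4 genes at each end of a list past 2-fold, and the neighbours nearest or past 2-fold. No gene is named for likeness of pattern, since 2 arrays give 1 difference per gene. The members and lists were chosen with earlier results of these data known.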

Additional observations from a re-analysis of the deposited data

How the results depend on the processing

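The 11 alternatives changed the scale, the normalization, the background correction, the source of the values, the rule for probes or the filter. Slamf9 (2.11 to 2.53) and Slamf8 (1.44 to 2.32) stayed at least 2-fold higher in each alternative that gave a value, and the other 8 members stayed within 2-fold. With the filter that asked for detection on both arrays, Slamf8 dropped out and 1 member was higher, by construction. The sign turned for Cd84 (-0.35 with the spike-ins, -0.071 with the median of all probes), Cd244 (-0.11 with the spike-ins) and Cd48 (0.0020 with cyclic loess). On the spike-in scale the medians turned to -0.23 for the members, -0.31 for the SAP partners, -0.069 for Tfh genes, -0.065 for plasma cell markers and -0.15 for NK and CD8 T cell markers. With the median of all probes, those of the SAP partners and of NK and CD8 T cell markers turned to -0.040 and -0.0080. The neighbours' median turned to 0.023 with the percentile of probes above background on both arrays, 0.014 with cyclic loess and 0.049 with the average over the probes of each gene. Over all genes, 871 were higher and 915 lower. These counts were 560 and 1508 with the spike-ins, 432 and 499 with both arrays above background, and 2059 and 1786 with no filter. The number higher was 563 after normexp and 1429 with measured values in place of bounds. The plasma cell median was 0.84 with measured values in place of bounds, and on the spike-in scale 1 SAP partner, Pik3r1 (-1.06), was 2-fold lower. Genes that fell below 2-fold higher on that scale included Cxcr5 (0.90), Nkg7 (0.73), Crtam (0.83), Lair1 (0.87) and Lyz2 (0.66). The B cell markers Blnk (0.85), Ebf1 (0.80) and Fcmr (0.70) fell below it too. The causes were not tested. The pDC median without Siglech, added after the data were seen, was 1.69. No paired analysis was possible because each group had 1 library. Dim probes are limited by the signal over background, which was lowest for Slamf8 in the wild-type library.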

Other observations

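Receptors of T and NK cells outside the SLAM block, most of them immunoglobulin-like, were set beside the members. Cd5 and Cd6, which are not immunoglobulin-like, were among them and lay at -0.24 and -0.34. All 13 genes were detected in both libraries, 2 of them past 2-fold upwards and 1 downwards, with a median of -0.17. Crtam, an adhesion receptor of activated T cells, was 2.30-fold higher with 912 units against 461, and Lair1, an inhibitory collagen receptor, was 2.36-fold higher with 2823 against 1391. Cd96, a receptor that binds nectin-like ligands, was 4.40-fold lower with 2481 against 12686. Lair1 also stood among the pDC markers. The explanations for these values were not tested.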
